A study of Homo sapiens with 6 samples.

Results

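The measurements compared here are a pair of Affymetrix Human Genome U95 Av2 arrays, 1 at day 1 and 1 at day 2, from U373 cells in which an introduced syk construct was being induced with PonA. They are 2 of the 6 arrays of the series, and were taken by their labels alone: the cell line, the transfection, the treatment and the day. U373 is an established human glioblastoma line. The cells of both arrays were syk-transfected and received ethanol together with 10 µM PonA, and they differ in the day. 2 further arrays, of syk-transfected cells given neither ethanol nor PonA at day 1 and at day 2, show the same step in time without the inducer. The other 2 hold syk-transfected cells in ethanol at day 1 and untransfected, untreated cells at day 1, and serve here only to show levels. All cells grew in RPMI medium with 5 to 10% fetal calf serum. Each group is 1 array, and the labels do not say whether the transfected cells are 1 clone or whether the cultures were independent. Ethanol alone was not measured at day 2, and the exposure is labelled as 6 to 48 hours for all treated cells together, so the hours behind either day are not known. With 1 array a side there is no replicate error and no test, and a difference below describes these arrays.

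Ponasterone A is a plant ecdysteroid, which mammalian cells do not make. In an ecdysone-inducible system it binds an insect ecdysone receptor that pairs with the retinoid X receptor RXR and then drives the introduced gene. SYK is a cytoplasmic tyrosine kinase that carries signals from immune receptors in blood cells. Dividing cells copy their DNA with a replication machinery that includes the MCM helicase, and then express a late set of genes, among them cyclin B and the Polo and Aurora kinases, that carry them through mitosis.

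Signals are the deposited MAS5 values, 1 per probe set, in arbitrary units. Each array has a floor, its 40th percentile, to which lower signals were raised. With PonA it was 26.5 at day 1 and 22.7 at day 2. A probe set counted if either day exceeded its floor, and a difference is the log2 signal at day 2 minus that at day 1. Where 1 of the values lay under the floor the fold is a lower bound, and "rose" and "fell" are used of differences of 2-fold or more. Because the floors themselves differ by -0.22 on the log2 scale, bounds downward are slightly favoured. A gene with several probe sets is read by the one that is brightest on average.

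From day 1 to day 2 with PonA most genes kept their level. Of 7941 probe sets, 84.3% lay within 1.5-fold, and the middle 90% of differences, from the 5th to the 95th percentile, spanned -0.79 to 0.60 with a median of -0.07. 70 probe sets (0.882%) rose and 163 (2.05%) fell. In untreated cells 83.4% of 8003 probe sets lay within 1.5-fold, 83 (1.04%) rose and 172 (2.15%) fell, or 125 (1.56%) and 112 (1.4%) after quantile normalization. The step from day 1 to day 2 was thus of like size on these arrays with and without the inducer. The preponderance of lower signals depended on the scaling: after quantile normalization over the 6 arrays the median with PonA was 0.002, and 97 probe sets (1.22%) rose and 108 (1.36%) fell. Over named genes, 51 of 5711 (0.893%) rose and 110 (1.93%) fell, against 74 (1.3%) each way after quantile normalization. Just inside the threshold, TLE3 stood at 2.001-fold and PPP1R12A at 2.02-fold higher, while TSR2 at 1.999-fold and ATP13A3 at 1.98-fold stood just outside. On the lower side BASP1 and PRRX1 fell by just over 2-fold, and ROBO1 and CCL25, the latter at 1.997-fold, fell short of it.

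The arrays of both days correlated with PonA at a Pearson r of 0.983 across probe sets on the floored log2 scale, with an SD of the differences of 0.35. The pair of untreated arrays gave 0.983 as well. The share of probe sets 2-fold apart followed the signal. Where the brighter PonA array read 50 to 100 units, 6.98% were 2-fold apart, and this was 3.37% at 100 to 200, 1.94% at 200 to 400 and 0.562% at 400 and over. Below 50 units it was 1.19%, where the floor leaves little room for such a fold. Without PonA the same classes gave 7.79%, 2.78%, 2.39% and 1.08%, and 1.14% below 50 units. Most of the differences counted were therefore between dim signals. The median difference with PonA was also lower for dim signals, at -0.17 below 50 units and -0.12 at 50 to 100, against 0.02 at 400 and over. Medians of dim lists below are to be read beside these. Where the brighter array read 400 units or more, 2 probe sets rose and 7 fell. With at least 100 units on both arrays, 13 probe sets rose and 15 fell with PonA, and 19 rose and 19 fell in untreated cells. 4 such minimums were looked at, 50, 100, 200 and 400 units, all chosen with the values in view. At 200 units no probe set rose with PonA and 6 fell. The 3' to 5' signal ratio of beta-actin, a measure of RNA integrity, was 0.960 to 0.987 on the day 1 arrays and 1.20 and 1.21 on those of day 2, so it moved with the day in both arms, and its part in any difference between days was not tested. The same ratio for GAPDH was 0.939 and 0.946 on the untreated arrays and 1.01 and 1.04 on those with PonA.

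**Figure D1:**
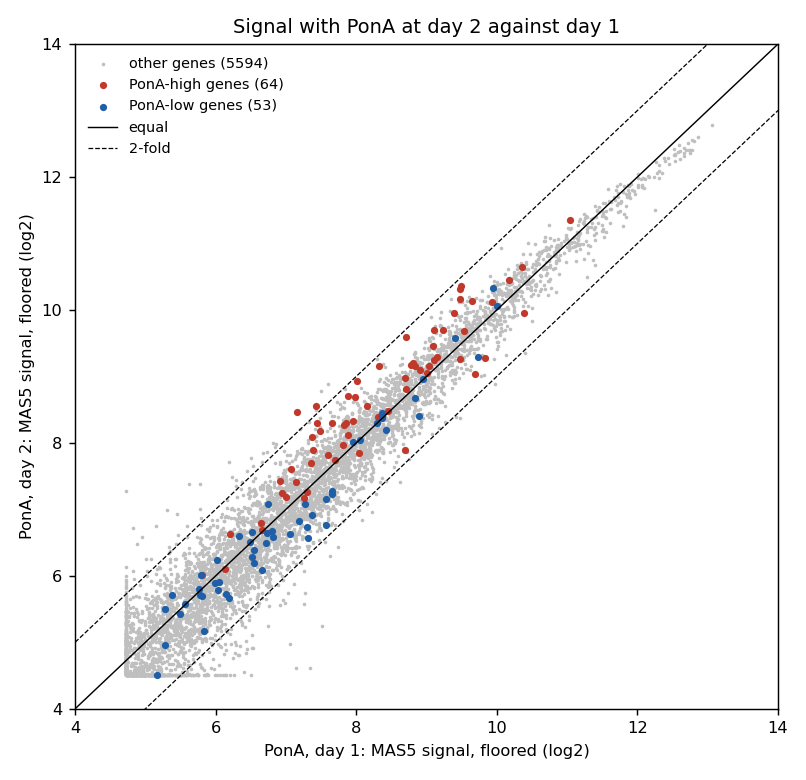
Each point is a gene that exceeded the floor with PonA on either day, with its floored log2 MAS5 signal at day 1 on the x axis and at day 2 on the y axis; solid and dashed lines mark equal and 2-fold different signals. The 64 genes high on both PonA arrays (red) lie mostly a little above the line of equality, and the 53 of the 61 genes low on both that were above a floor (blue) mostly on or below it.

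**Figure D2:**
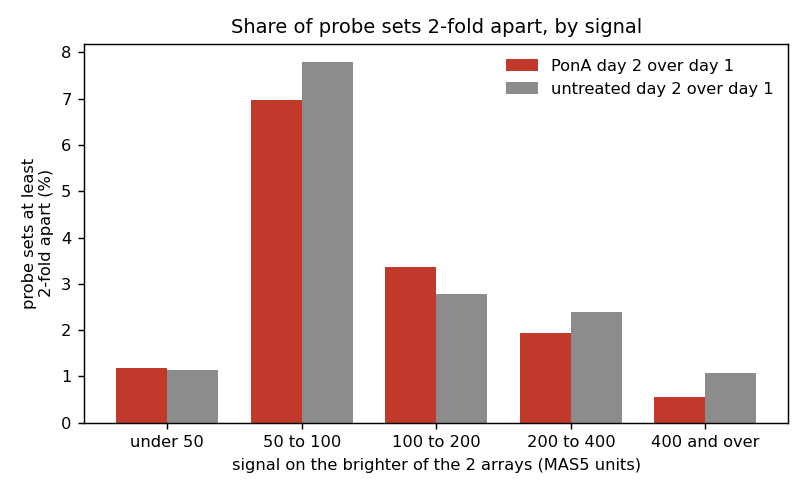
Bars give the percentage of probe sets at least 2-fold apart between day 2 and day 1, by the signal on the brighter of the 2 arrays (MAS5 units), with PonA (red) and in untreated cells (grey). Above 50 units the share falls with signal in both, from 6.98% to 0.562% with PonA.

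Genes that were high with PonA on both days were mostly a little higher on the second. For this, 64 genes were taken whose signal on both PonA arrays was at least 2-fold above each of the 3 transfected arrays without PonA. The choice was made after values were seen and uses the PonA arrays themselves, but treats both days alike, so the counts are a description. Genes clear of the uninduced arrays on day 1 alone, such as COL1A1, EPAS1, TGFB1 and BASP1, are outside it and were lower at day 2. Of the 64, 55 were higher at day 2 and 9 lower, 47 lay within 1.5-fold and 2 rose, with a median difference of 0.31 and a middle span of 0.13 to 0.55. These counts read 1 probe set a gene, and further probe sets did not all go the same way. A second one read 107 and 82.1 for DUSP7, but 102 and 186 for CA12. After quantile normalization the median was 0.32, with 57 higher. Over all genes the median was -0.05, with 45.3% higher. The same genes in untreated cells had a median of -0.13 over the 61 above a floor there.

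The 2 genes that rose were RCAN2 and SEPHS1. RCAN2, a regulator of the phosphatase calcineurin, read 142 at day 1 and 353 at day 2 with PonA, a 2.48-fold difference, while the transfected arrays without PonA read 29.6 to 32.5. SEPHS1, named for selenophosphate synthetase, read 172 and then 375, or 2.18-fold more, against 40.1 to 67.4 without PonA. Both were thus clear of the uninduced arrays on day 1 and further from them on day 2. SORBS2, an adaptor of actin stress fibres, went from 258 to 489, and CALD1, the actin-binding caldesmon, from 320 to 572. RGS4, which shortens G protein signals, went from 711 to 1273, and KDR, the main VEGF receptor of endothelial cells, from 236 to 418. Second probe sets read 52.4 and 59.7 for KDR and 234 and 354 for CALD1. The growth factor HBEGF read 165 and 271. The ERK feedback inhibitor SPRY2 read 202 and 316, a difference of 0.64. All of these stayed under 2-fold between the days. The other end of the set held genes that were already at their highest on day 1. SERPINA1, the protease inhibitor alpha-1 antitrypsin, read 1343 and then 988 and was between 53.3 and 61.8 without PonA. TNFRSF21, a death-domain receptor, went from 821 to 524, UNC5B, a netrin receptor, from 911 to 618, and SCD, which desaturates stearoyl-CoA, from 413 to 237, the lowest difference of the set at -0.80. SCD and TNFRSF21 were lower at day 2 in untreated cells too, with differences of -0.68 and -1.17.

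61 other genes were low with PonA on both days, by the same kind of choice. They lay at least 2-fold below all 3 transfected arrays without PonA on both days. This set shares genes with the mitosis list below, among them PTTG1, CCNB1, TOP2A and MAD2L1, so the set and the list are not separate observations. 8 of the 61 lay under both PonA floors and have no difference to give. Of the other 53, 35 were lower and 18 higher at day 2, none was 2-fold apart and 49 lay within 1.5-fold, with a median of -0.14 that became -0.05 after quantile normalization. In untreated cells 51 of the 61 were higher at day 2, with a median of 0.25.

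Mitotic genes were mostly lower on the second day with PonA and mostly higher on the second day without it. The mitosis list holds 46 genes, of which 41 are on the array and 31 were above the floor on both PonA arrays. The other 10 lay under it on each day. 22 of the 31 were lower at day 2 and 9 higher, with a median of -0.32, and 1 of them, PLK1, fell. After quantile normalization 23 were lower and the median was -0.16. Over all genes 54.7% were lower, with a median of -0.05, and 0.893% rose and 1.93% fell. Of the 37 list members above a floor in untreated cells, 28 were higher at day 2, with a median of 0.26. The PonA difference lay below the untreated difference in 28 of the 31 genes (90.3%), and in 49.9% of all genes. The list was chosen with results of these data known, and the difference between the arms was not tested. In bulk RNA, fewer dividing cells and less of these messages per cell cannot be told apart. The arms differ in ethanol as well as in PonA, and ethanol alone was not measured at day 2. Vehicle and inducer therefore cannot be told apart in this contrast.

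The 4 mitotic genes with the lowest differences are shown by the 120 bases before their annotated start, since cell cycle promoters often carry letters of 2 known kinds. TTTGAA is the core of the cell cycle genes homology region, through which these genes are held down outside late cell cycle, and CCAAT is the box bound by the factor NF-Y. Capitals mark TTTGAA or CCAAT on either strand (TTCAAA or ATTGG when read on the strand shown), and CCAATTGG holds both orientations of the box overlapping. The sequences are from RefSeq on GRCh38.p14, plus strand, at chr16:23678769-23678888 for PLK1, chr5:160421735-160421854 for PTTG1 (the first of its 2 starts), chr5:163460512-163460631 for HMMR and chr5:69167030-69167149 for CCNB1.
PLK1: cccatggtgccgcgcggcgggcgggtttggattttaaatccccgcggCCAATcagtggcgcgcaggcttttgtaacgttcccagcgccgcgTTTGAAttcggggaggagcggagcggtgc
PTTG1: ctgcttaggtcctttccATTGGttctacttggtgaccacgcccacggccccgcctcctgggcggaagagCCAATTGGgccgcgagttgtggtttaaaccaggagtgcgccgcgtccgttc
HMMR: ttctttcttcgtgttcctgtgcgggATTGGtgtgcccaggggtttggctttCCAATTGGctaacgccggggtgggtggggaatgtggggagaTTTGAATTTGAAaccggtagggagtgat
CCNB1: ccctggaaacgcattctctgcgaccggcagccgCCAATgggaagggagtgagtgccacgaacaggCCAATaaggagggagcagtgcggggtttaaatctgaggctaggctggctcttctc
PLK1 carries 1 TTTGAA and 1 CCAAT in this window, HMMR 2 and 3, while PTTG1 and CCNB1 hold 3 and 2 CCAAT and no TTTGAA. Over the 250 bases before a start, TTTGAA was found for 17 of the 34 list members with a sequence entry (50%), 2 of 37 DNA replication genes (5.41%), 14.5% of 6618 genes on the array and 13.3% of all 35116 windows. CCAAT was found for 28 of 34 (82.4%), 21 of 37 (56.8%), 42.6% and 32.0%. A further variant, TTCGAA, was found for 2 of the 34, 1 of the 37, 1.84% and 1.19%. These letters and promoters were picked after the values were seen, and a match is no measured site.

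PLK1, the Polo kinase that drives entry into and passage through mitosis, read 606 in untransfected cells, 573 to 851 in transfected cells without PonA, 300 with PonA at day 1 and 124 at day 2. That is a difference of -1.27, against -0.21 in untreated cells. Each PonA array was below every array without PonA, and day 2 was below day 1. PTTG1, the securin that holds back the separation of sister chromatids, read 1212 to 2045 without PonA, 190 with it at day 1 and 108 at day 2. HMMR, a spindle-associated hyaluronan receptor, read 55.7 and 32.1. CCNB1, cyclin B1, read 159 and 94.5, and its second probe set 120 and 95.5. These 3 were lower at day 2 with PonA by 0.75 to 0.81 on the log2 scale and did not reach 2-fold, and in untreated cells their differences were 0.46, 0.07 and 0.38. BIRC5, or survivin, read 157 and 106. The kinase AURKB read 473 and 340, AURKA 190 and 142, and FOXM1, a factor that drives late cell cycle genes, 166 and 120. All 4 were higher than this on every array without PonA. At the other end, TOP2A, the topoisomerase that untangles sister chromatids, read 107 and 136 with a difference of 0.34. MAD2L1 of the spindle checkpoint read 41.6 and 52.6, and SMC4 of condensin 26.5 and 33.4. All 3 stayed below their levels without PonA, which were 256 to 626 for TOP2A, 106 to 197 for MAD2L1 and 52.0 to 68.1 for SMC4.

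The DNA replication list had a median near that of all genes. Of 44 listed genes 42 are on the array and 36 were above a PonA floor. 14 were higher and 22 lower at day 2, none was 2-fold apart, and the median was -0.06. After quantile normalization 20 were higher and 16 lower, with a median of 0.01. In untreated cells 32 of 40 were higher at day 2 with a median of 0.43, and 33 of the 36 PonA differences (91.7%) lay below the untreated ones. The replicative helicase subunits MCM5 and MCM4 read 46.3 and 58.7 at day 1 and 27.6 and 37.5 at day 2. RFC2 of the clamp loader read 115 and 73.9, whereas its partner RFC4 read 158 and 257, with differences of -0.64 and 0.70. RFC4 had a like difference of 0.67 without PonA. The primase subunit PRIM2 (0.38) and the polymerase POLA1 (0.31) were the next highest. Among 13 CDK inhibitor, cyclin D and pocket protein genes on the array, 10 were above a floor, none was 2-fold apart and the median was 0.12. CDKN1A, the p21 inhibitor, read 226 and 268, and RB1 49.6 and 63.6. CCND1 read 171 and 231 on its main probe set, but 128 and 104 on another and 41.4 and 30.5 on a dimmer one. Its direction therefore depends on the probe set.

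**Figure D3:**
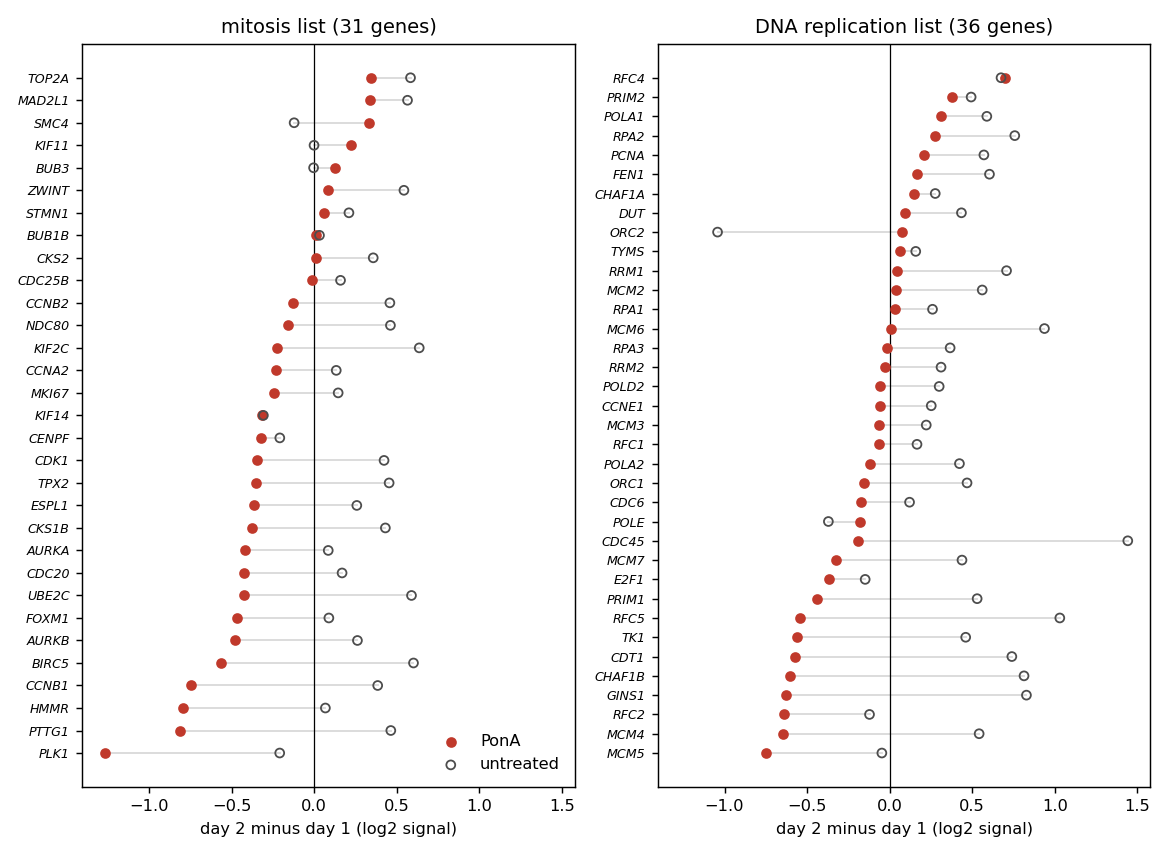
Points give the log2 difference, day 2 minus day 1, of each mitosis (left) and DNA replication (right) gene above a PonA floor, with PonA (red) and in untreated cells (open circles), and a line joins the values of 1 gene. The red point lies left of the open one in 28 of 31 mitosis genes and 33 of 36 replication genes, and PLK1 is the only red point beyond -1.

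The largest rises with PonA were mostly in genes that were dim at day 1. COL13A1, a transmembrane collagen, read 28.3 at day 1 and 105 at day 2, a 3.72-fold difference, and 2.25 to 23.2 on the arrays without PonA. Its second probe set went from 33.1 to 76.3, so both read the same way. SCG2, a secretory granule protein, went from 49.2 to 167, and untransfected cells read 266. COL8A1, a short-chain collagen, read 54.8 and 167, against 57.3 to 86.7 elsewhere. APOA1, the main HDL protein, read 35.5 and 107, and 4.46 to 22.5 without PonA. TPTEP1, a pseudogene transcript, read 29.4 and 89.3. COL8A1 and APOA1 were thus higher with PonA at day 2 than on any other array, while SCG2 was not. RUSC2 (39.5 and 128) and CHI3L2 (30.9 and 95.8), a chitinase-like secreted protein, rose from values below those of all 4 arrays without PonA. RDH11, a retinal reductase, read 73.0 and 211, and RAPGEF3, the cAMP-activated exchange factor EPAC1, 43.6 and 122. RAPGEF3 went the other way in untreated cells, from 93.4 to 28.3. GPNMB, a lysosomal and melanosomal glycoprotein, read 16.4, under the floor, at day 1 and 156 at day 2, at least 5.88-fold higher. It rose in untreated cells too, from 30.1 to 133. ARHGEF17 (at least 2.66-fold), DTNB (at least 2.40-fold) and GLI3 (at least 2.31-fold) were the next largest bounds, and their day 2 signals were 70.4, 63.7 and 61.3.

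Among the brighter genes, 2313 had at least 150 units on both PonA arrays, a limit set after the values were seen. 4 of them rose. IDI1, the isopentenyl diphosphate isomerase of the sterol pathway, read 194 at day 1 and 473 at day 2, 2.44-fold higher, and lay between 171 and 314 without PonA. DDIT3, the stress factor CHOP, read 181 and 441, and its second probe set 191 and 287. Its main probe set read 86.4 to 399 without PonA, highest in ethanol at day 1, so the day 2 value with PonA was not far above that range. SEPHS1 is described above. NAE1, a subunit of the NEDD8-activating enzyme, read 172 and 361, against 177 to 304 without PonA. Just under 2-fold were the kinase MAP4K4 (229 and 450) and the growth arrest gene GAS1 (315 and 615).

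The largest falls were mostly to signals near the floor. PSMA7, a proteasome core subunit, read 163 at day 1 and 24.6 at day 2 with PonA, 6.62-fold lower. In untreated cells it went from 36.1 to 109, and ethanol cells read 114, so this probe set ranged widely over the 6 arrays. AP1G2, an adaptor of clathrin coats, went from 142 to 24.6, and its second probe set from 40.7 to 28.9, a difference of -0.49. EVX1, a homeobox factor, read 183 and 38.1, and the ethanol array 34.6. GTPBP1, a GTP-binding protein, read 134 and 31.4 with PonA and 236 and 95.1 in untreated cells, so it fell in both. FGF4 went from 84.9 to 23.5 with PonA and from 51.5 to 117 without it. ELAVL3, a neuronal RNA-binding protein, read 153 and 47.5. IGHM, BFSP2, GNRH2 and ALOX15, genes of lymphocytes, the lens, a neuropeptide and lipid oxidation, read 86.2 to 92.4 at day 1 and 28.6 to 30.3 at day 2. GOLGA2, a Golgi matrix protein, read 154 and 53.6, and RTEL1, a DNA helicase, 80.3 and 28.0, and at day 2 both were below all 4 arrays without PonA. The largest bounds were KRT9 (at least 3.999-fold lower, from 90.9), CEMIP (3.37-fold, from 76.7), GH1 (3.26-fold, from 74.0) and WT1-AS (3.13-fold, from 71.1), the last an antisense gene whose reading strand was not checked here.

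Of the brighter genes 6 fell. PITPNM1, a phosphatidylinositol transfer protein, read 714 and 331, and the pseudogene GUSBP11 396 and 171. MAZ, a zinc finger factor, read 1357 and 651 with PonA and 1488 and 863 without. CDC42, the small GTPase, read 687 and 335 with PonA and 1401 and 918 in untreated cells. THBS1, an anti-angiogenic matrix protein, read 1005 and 473, and 640 and 251 in untreated cells. BASP1, a membrane protein of growth cones, read 431 and 215, and 153 and 104 in untreated cells. The last 4 were therefore lower at day 2 in both arms, with untreated differences of -0.79, -0.61, -1.35 and -0.56. Other probe sets of the genes counted were seldom 2-fold apart. Of 23 further probe sets for 18 genes that fell, 18 were lower and 1 was 2-fold lower, and of 6 for 5 genes that rose, 5 were higher and 1 was 2-fold higher.

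**Figure D4:**
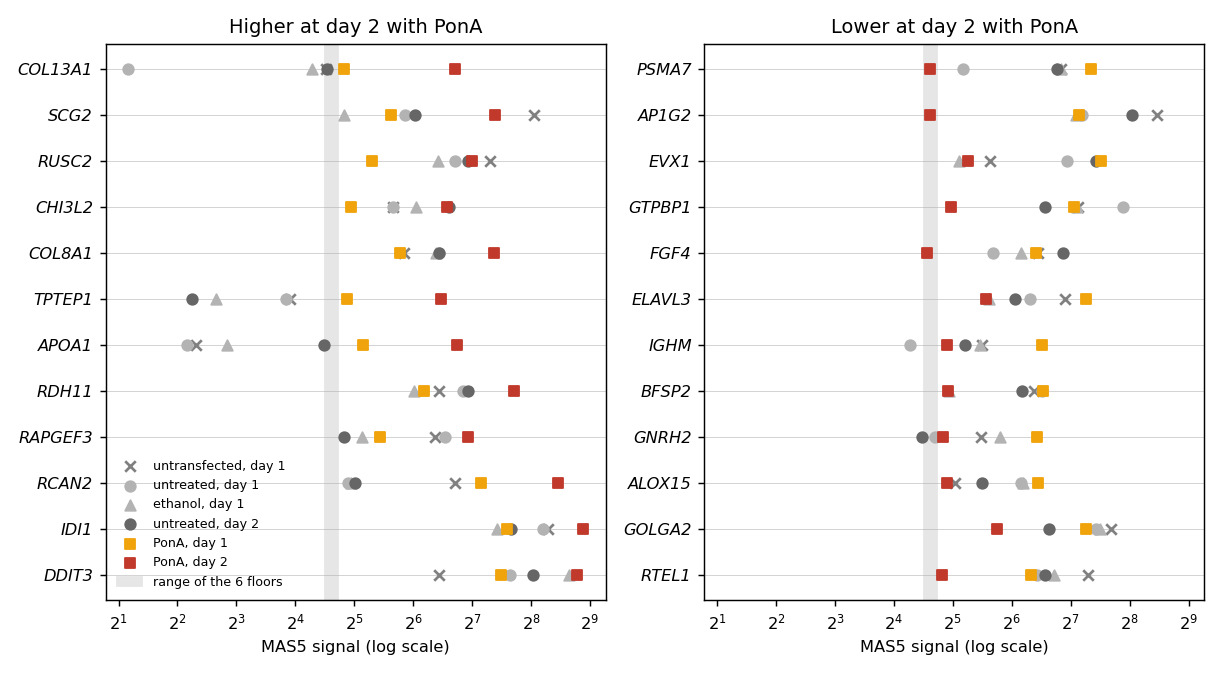
MAS5 signal (log scale) on each of the 6 arrays for the 12 genes with the largest rises (left) and falls (right) among genes above the floor on both PonA arrays; the grey band spans the 6 floors. For the genes on the right the day 2 PonA signal (red) lies between 23.5 and 53.6 and mostly at the left edge. The spread of the arrays without PonA differs by gene, from 34.6 to 173 for EVX1 but 86.6 to 157 for RTEL1.

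The lists that follow can be read beside all genes with PonA. Of those, 0.893% rose, 1.93% fell, 45.3% were higher and 54.7% lower, with a median of -0.05. In the matrix and adhesion list, 50 of 57 genes on the array were above a PonA floor, 1 rose and 3 fell, and the median was -0.02. COL8A1 rose. COL1A1, a chain of type I collagen, went from 121 to 47.1, and at day 2 was near the 31.7 to 41.7 of the arrays without PonA. THBS1 fell on its main probe set and on another that read 544 and 217, while another, dimmer one read 62.0 and 48.7. ITGAV, the integrin alpha V chain, read 286 and 135 on its main probe set, but 191 and 265 on a second, so its direction depends on the probe set. THBS2 read 160 and 262 and the proteoglycan VCAN 602 and 822. Among 19 TGF-beta target genes above a floor none was 2-fold apart, with a median of -0.12 that turned to 0.10 after quantile normalization. TGFB1 itself read 2496 and 1444 with PonA and 980 and 378 without. CCN1 and CCN2, secreted matricellular proteins, were 0.48 and 0.26 higher. Of 21 actin cytoskeleton genes 15 were lower, with a median of -0.20 in both arms, and PDLIM7, an actin-linked LIM protein, fell from 109 to 46.6.

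Stress and metabolic lists held few changes. Of 32 unfolded protein and integrated stress response genes, DDIT3 alone was 2-fold apart and the median was 0.06. GADD45A, a growth arrest gene, read 94.2 and 177, the ER protein HERPUD1 560 and 808, and the amino acid transporter SLC7A5 1692 and 1193. Of 20 sterol and fatty acid synthesis genes 14 were higher, against 45.3% of all genes. Their median was 0.16, with only IDI1 past 2-fold. INSIG1, which retains the sterol sensor in the ER, read 143 and 236, and was as much higher in untreated cells, 150 and 240, while ACACA, acetyl-CoA carboxylase, read 119 and 73.0. Of 13 LXR and retinoid targets 11 were lower, with a median of -0.11, but after quantile normalization 7 were lower and 6 higher, with a median of -0.14. In untreated cells the median was 0.39 over 11 genes. In that list ALDH1A3, a retinaldehyde dehydrogenase, rose from 116 to 252 and ABCA1, the cholesterol exporter, fell from 187 to 91.3. ABCA1 was lower on another probe set too, at 54.5 and 34.7. Alcohol and aldehyde metabolism had a median of -0.09 over 11 genes, with ALDH1A3 its only gene past 2-fold. Heat shock (16 genes, -0.10) and metallothionein and oxidative stress genes (25 genes, -0.02) held none. Their extremes were STIP1, a co-chaperone, at 572 and 338, and NFE2L2, the antioxidant factor NRF2, at 99.1 and 159.

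Of 29 hypoxia and glycolysis genes 21 were lower, against 54.7% of all genes, and none reached 2-fold. Their median was -0.20, or -0.05 after quantile normalization, when 17 were lower and 11 higher. In untreated cells 17 of 28 were lower, with a median of -0.16. EPAS1, or HIF-2 alpha, read 542 and 280, still above the 88.3 to 158 of all arrays without PonA. PFKFB3, a regulator of glycolysis, read 343 and 172 with PonA and 369 and 187 in untreated cells, and a second probe set read 275 and 107. ADM, adrenomedullin, read 959 and 1465, against 149 to 577 without PonA. Among 15 p53 targets the median was -0.13 and THBS1 alone fell. Of 22 apoptosis and survival genes, with a median of -0.09, BCL2 alone was past 2-fold, from 118 to 58.0, but its 4 other probe sets ranged from lower to level, 1 reading 71.7 and 72.8. MCL1, another survival protein, read 502 and 736. Of 31 lysosomal genes GPNMB alone was past 2-fold, and the median was 0.09. The cathepsin CTSH read 747 and 1076, and 724 and 1193 without PonA.

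Signalling and immune lists were divided. Of 29 immediate early and MAPK feedback genes above a floor 17 were higher and 12 lower, with a median of 0.19 and none 2-fold apart. DUSP4, an ERK phosphatase, read 38.5 and 64.6, and FOSB, an AP-1 subunit, 141 and 72.5. NF-kB and inflammatory genes (18, median 0.11) and interferon-stimulated genes (26, median -0.06, or 0.08 after quantile normalization) held none past 2-fold. HLA-E, a class I molecule, read 583 and 940. Among 16 SYK signalling partners above a floor 14 were lower, with a median of -0.39 or -0.24 after quantile normalization. Over all genes 54.7% were lower, and in untreated cells 11 of 17 partners were, with a median of -0.16. With PonA the median signal of all 25 members on the array was 43.1 at day 1. At day 2 it was 22.6, just under the floor, and 15 and then 12 members were above the floor. PLCG2, a phospholipase of B cells, was at least 2-fold lower, from 48.9 to under the floor, and the list's other members stayed inside 2-fold, among them the kinase FYN at 672 and 674.

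The SYK probe sets of the array did not move together. One read 39.1 at day 1 and 72.5 at day 2 with PonA, 1.86-fold higher, and was under the floor on all 4 arrays without PonA. The second, brighter on average, read 56.3 and 35.2 with PonA and 73.1 at day 1 and under the floor at day 2 in untreated cells. The third was under the floor on all 6 arrays. What the construct shares with each probe set is not known from the sources used here, so neither is taken as its level. ZAP70, the related kinase of T cells, read 26.6 and 11.3, next to and under the floor. RXRA, the partner of the ecdysone receptor, read 640 and 739, and 265 and 239 on a second probe set, and RXRB 233 and 213, and 105 and 78.4 on a second. RXRG read 22.5 and 28.6, near the floor, and its second probe set was under the floor on all 6 arrays.

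Most glial markers were measured on both days with differences under 2-fold. GFAP, the astrocyte filament, read 193 and 229 with PonA, the stem and glial factors SOX2 644 and 785 and SOX9 812 and 791, the fatty acid binding protein FABP7 1505 and 1638, and the intermediate filament VIM 6239 and 4919. Of 15 glial genes above a floor 12 were higher, against 45.3% of all genes, with a median of 0.24. None rose, and NDRG2 fell from 57.1 to under the floor. The highest differences were those of AGT, angiotensinogen, at 42.7 and 76.6, and of CLU, clusterin, at 654 and 1141. SLC1A2 and AQP4, markers of mature astrocytes, were under the floor on all 6 arrays, so the check of the glioblastoma label rests on the others. Of 17 haematopoietic genes on the array 11 lay under both PonA floors, including the leukocyte markers PTPRC, CD3D, CD14, ITGAM and SPI1. The 6 above a floor include CD3E at 83.2 and 58.7, CD74 at 54.5 and 40.7, HBB at 44.0 and 28.3, and HLA-DRA at 58.7 and 72.1. 5 of the 6 were lower at day 2 and 1 was higher. The summed signal of the 17 was 544 at day 1 and 478 at day 2, with none 2-fold apart. Oligodendrocyte markers summed to 1264 and 975, with MBP and OLIG2 under the floor and 6 of 10 above it, median -0.53 or -0.42 after quantile normalization. Of those 6, 5 were lower, among them CNP at 660 and 453 and MAG at 243 and 157. MYRF was higher, at 108 and 138. Neuronal markers summed to 6901 and 6151 (10 of 18 above a floor, median -0.19), and fibroblast and epithelial ones to 3159 and 3170 (10 of 17, median -0.24, with COL1A1 alone past 2-fold).

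Abundant genes set the scale against which these values can be read. 46 ribosomal protein genes had a median of -0.06, or 0.03 after quantile normalization, and differences from -0.38 to 0.28. 52 oxidative phosphorylation genes had a median of 0.04 and none past 2-fold, and 11 housekeeping genes -0.11, from -0.34 for ACTB to 0.44 for TFRC. The proteasome list had 26 of 32 genes higher, against 45.3% of all genes, and a median of 0.15. PSMA7 was its only gene past 2-fold, and its median in untreated cells was 0.18. Of 15 histone genes above a floor none was 2-fold apart, with a median of 0.06.

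**Figure D5:**
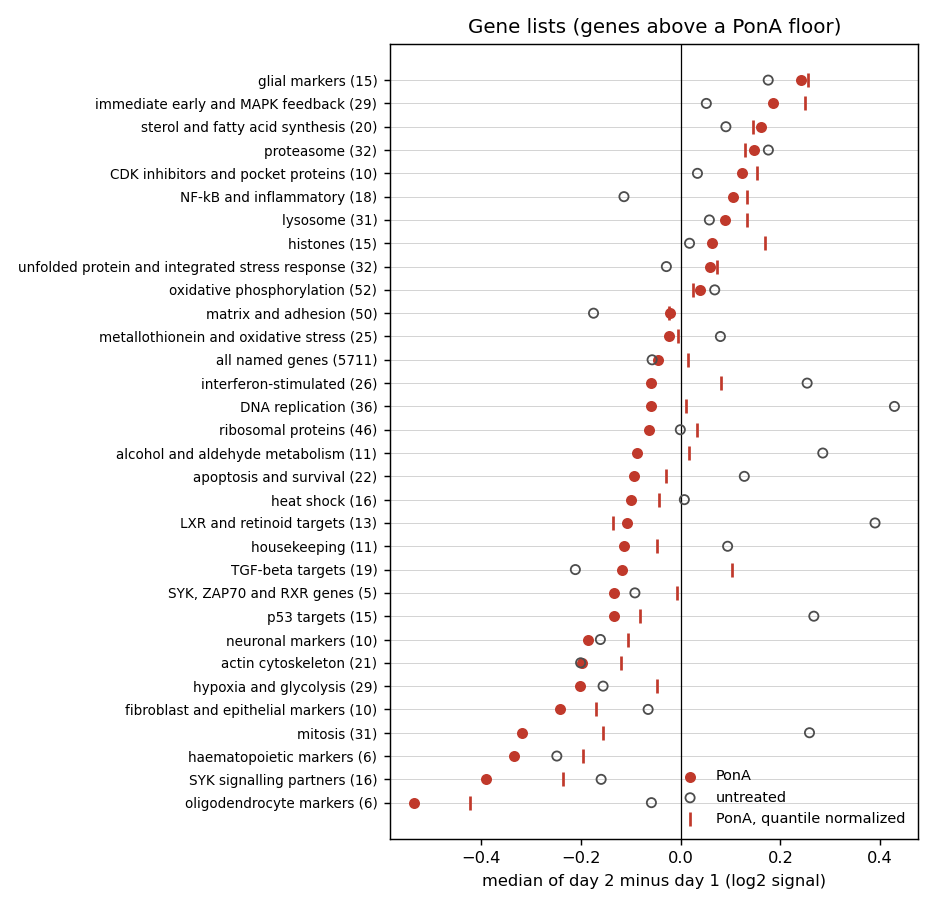
Each row is a gene list, with the number of its genes above a PonA floor; the x axis gives the median log2 difference, day 2 minus day 1, with PonA as deposited (red), with PonA after quantile normalization (red tick) and in untreated cells (open circles). The mitosis list lies at -0.32 with PonA and 0.26 without, while the ribosomal protein list lies at -0.06 with PonA.

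The step from day 1 to day 2 had some of its genes in common with and without PonA, mostly among those that fell. The 2 differences share no array, and over 6682 probe sets above the floor on all 4 arrays their correlation was 0.246 by Pearson's r and 0.265 by Spearman's rho. Over the 3534 with at least 100 units on all 4 the values were 0.345 and 0.338. These are correlations across probe sets of 1 array design and scaling, in which both day 2 arrays also share the higher actin ratio, and they are given as descriptions. Over all probe sets, 2.05% fell with PonA and 2.15% in untreated cells, and 0.882% and 1.04% rose. 29 probe sets fell in both, which is 17.8% of the 163 with PonA and 16.9% of the 172 without. They include THBS1, ITGAV, GTPBP1, PRRX1, STAT6, the ephrin receptor EPHA3 and EPHX1. 3 rose in both, 4.29% of 70 and 3.61% of 83, namely GPNMB, ARHGEF17 and the ephrin EFNA1. Another 3, again 4.29% of the 70, rose with PonA and fell without it (RAPGEF3, MEG3 and VASP), as many as rose in both. 3 fell with PonA and rose without it (PSMA7, FGF4 and SLC7A4), 1.84% of the 163.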

How the data were processed

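The values are MAS5 signals per probe set, an intensity on a linear scale, as the authors deposited them. MAS5 is named in the submitters' processing notes, and its version is not given in the sources used here. Biotin-labelled cRNA was hybridised, per the labels' protocols. The trimmed mean signal of every array was 150.07 or 150.08, so the arrays had been scaled to a common level. Of 12625 probe sets, 67 controls were left out. Of the other 12558, 10943 had 1 gene symbol, 545 several and 1070 none. 10934 of the first matched the RefSeq gene table of GRCh38.p14, and they stand for 8226 genes.

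Signals were raised to each array's 40th percentile over the probe sets kept, and log2 differences were taken with numpy 2.4.6 and pandas 2.3.3, also after quantile normalization over the 6 arrays. With 1 array per group there is no p-value, and the number of arrays limits the precision. The arithmetic was tested on simulated data, with large changes planted only among bright probe sets. That checks the calculation, and does not show how reliable the counts among dim signals are. The genes named are the 12 highest and 12 lowest among genes measured on both days with PonA and 2-fold apart on both scales, the 4 largest bounds each way, up to 3 genes each way per list where the text names them, all SYK, ZAP70 and RXR probe sets, and 2 genes on either side of the threshold. The 31 lists and the comparison were chosen with earlier results of these data known. Chosen after the differences were seen were the sets of genes high or low with PonA, the genes at 150 units or more, the promoter letters, other named members, and the signal minimums of 50, 100, 200 and 400. Alternatives were other floors (20th and 60th percentile), a pseudocount of 16 instead of raised signals, median centring, other probe sets and both arrays above the floor.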

Additional observations from a re-analysis of the deposited data

Results flagged for a closer look

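6 genes and 1 list moved in opposite directions from day 1 to day 2 with and without PonA, and the difference between the arms was not tested, since each rests on 4 single arrays. The sizes asked for, 2-fold in both arms for a gene and 0.2 for a list median, were set with the values in view. RAPGEF3 had a log2 difference of 1.48 with PonA and -1.72 in untreated cells. PSMA7 had -2.73 with PonA and 1.59 in untreated cells. FGF4 had -1.85 and 1.18. MEG3 had 1.11 and -1.62, SLC7A4 -1.03 and 1.37, and VASP, from signals under the floor on 1 side in each arm, 1.10 and -1.02. The median of the mitosis list was -0.32 with PonA and 0.26 in untreated cells. The single genes read at most 163 units on these 4 arrays.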

How the results depend on the processing

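No paired analysis was possible because each group is 1 array. The counts with PonA, 70 probe sets that rose and 163 that fell, depended on the treatment of dim signals. A floor at the 20th percentile gave 229 and 544, and one at the 60th percentile 28 and 34. A pseudocount of 16 instead of raised signals gave 43 that rose, with the floor still deciding which probe sets counted. After quantile normalization 108 fell. Minimums of 50, 100, 200 and 400 units on both arrays, added after seeing the data, gave 29 and 37, 13 and 15, 0 and 6, and 0 and 2, with fewer probe sets entering each count. For untreated cells (83 and 172) quantile normalization gave 125 and 112, the 20th percentile 325 and 692, the 60th 28 and 34, both arrays above the floor 109 that fell, and the same minimums 30 and 39, 19 and 19, 10 and 6, and 4 and 2. No p-value stands behind any of these counts, since there is 1 array a side. With the 60th percentile as floor, ARHGEF17 changed sign to -0.061. With the 20th the untreated median of the alcohol and aldehyde list changed sign to -0.051. For lists, sign changes were counted only where the median was at least 0.2 in size, and some smaller medians changed sign too. After quantile normalization the PonA medians of the TGF-beta and interferon lists went from -0.12 to 0.10 and from -0.06 to 0.08. Of the other alternatives, 425 list medians moved by under 0.2 and 8 by more, and 235 values of named genes moved by under 0.5 and 31 by more, limits set with the values in view. Signals near the floor limit what these arrays can show.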
